A study of Mus musculus with 4 samples.

Results

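The genes described here are 10 ligand and receptor genes of the transforming growth factor-β (TGF-β) and bone morphogenetic protein (BMP) family, taken by gene symbol from 21882 genes analysed. They are the TGF-β ligands Tgfb1, Tgfb2 and Tgfb3, the TGF-β receptors Tgfbr1 and Tgfbr2, the BMP ligands Bmp4 and Bmp7, and the BMP receptors Bmpr1a, Bmpr1b and Bmpr2. Each had 1 line in every file. Levels are in FPKM, the fragment count of a gene scaled for its exon length and for the size of the library, so levels of different genes can be set side by side per length. In some library 7 of the 10 reached 1 FPKM, as did 12952 of all genes, which are called tested genes below. Tgfb1, Tgfbr2 and Bmp4 did not.

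The libraries were made from retinas of pHes1-EGFP transgenic mice of the FVB/N strain, which received no treatment. In this line a 2.5-kb promoter of Hes1, a Notch target and transcriptional repressor, drives a destabilized EGFP. Dissociated retinal cells were sorted into EGFP-positive cells (pHes1_EPCs) and EGFP-negative cells (pHes1_ENCs) at postnatal day 1 (P1) and postnatal day 4 (P4), which gave 4 groups of 1 library each. All 4 groups carried the transgene, so a fraction is set by reporter brightness and not by cell type, and the number of animals behind a library is not given in the sources used here.

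With 1 library per group no difference was tested, and a difference between ages or fractions cannot be told apart from one between libraries. A model of age and fraction over the 4 libraries would leave 1 residual degree of freedom and take any effect of age on the fractions as error, so it was not used. The 95% intervals given below are those deposited with the FPKM values and cover counting and assignment error only. Between 14.9% and 17.2% of tested genes in a library had a value outside its own interval, but no ligand or receptor described here did. A difference is given as log2(FPKM + 1) of the first library minus that of the second, which understates the difference of genes near or below an FPKM of 1, and is called beyond 2-fold where it is past 1 in either direction. In sorted cells a lower level can come from fewer cells of a type or from less RNA per cell, and these cannot be told apart.

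Hes1 itself was at 16.6 FPKM in P1 pHes1_ENCs, 104.5 in P1 pHes1_EPCs, 3.59 in P4 pHes1_ENCs and 93.5 in P4 pHes1_EPCs, so the sort followed the gene whose promoter was used. In every library but P4 pHes1_ENCs the Hes1 value lay outside its own deposited interval, which was 87.5 to 95.4 in P1 pHes1_EPCs and 78.1 to 86.6 in P4 pHes1_EPCs. The 6 progenitor markers summed to 421, 2185, 124 and 1123 FPKM in the same order, led by the cell cycle gene Ccnd1. The 10 Müller glia markers summed to 467, 1404, 317 and 2785 FPKM, led at P4 by Apoe. The 8 rod markers summed to 538, 35.8, 3677 and 703 FPKM, so rod transcripts were present in pHes1_EPCs too, and more so at P4. Progenitor, Müller glia and rod marker transcripts were therefore all present in both fractions. Whether the fractions were mixtures of these cell types was not tested. All differences between the fractions below were measured together with these shifts in marker levels, and the part of cell makeup in them was not tested.

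TGF-β family ligands are secreted dimers that bring together type II and type I receptor kinases on the target cell. The type II receptor phosphorylates the type I receptor, which phosphorylates SMAD transcription factors that enter the nucleus with the common partner SMAD4. TGF-β ligands signal through TGFBR2 and TGFBR1, while BMPs use BMPR2 or activin type II receptors with BMPR1A, BMPR1B or ACVR1, and Id genes are the best-known BMP targets. In the retina, BMP signalling is known for dorsal-ventral patterning of the eye and for progenitor growth, and TGF-β2 for restraining proliferation of late progenitors and Müller glia.

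Among these genes Tgfb2 and Bmpr1b were the ones higher in pHes1_EPCs by the widest margin on the log2(FPKM + 1) scale, and Bmpr2 was the one lower beyond 2-fold. Tgfb2 was 3.70-fold higher at P1 and 8.51-fold higher at P4, and Bmpr1b was 2.84-fold higher at P1 and 13.4-fold higher at P4. Bmpr2 was 3.32-fold lower in pHes1_EPCs at P4. The more abundant receptors Tgfbr1 and Bmpr1a differed by less than 2-fold at both ages.

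**Figure D1:**
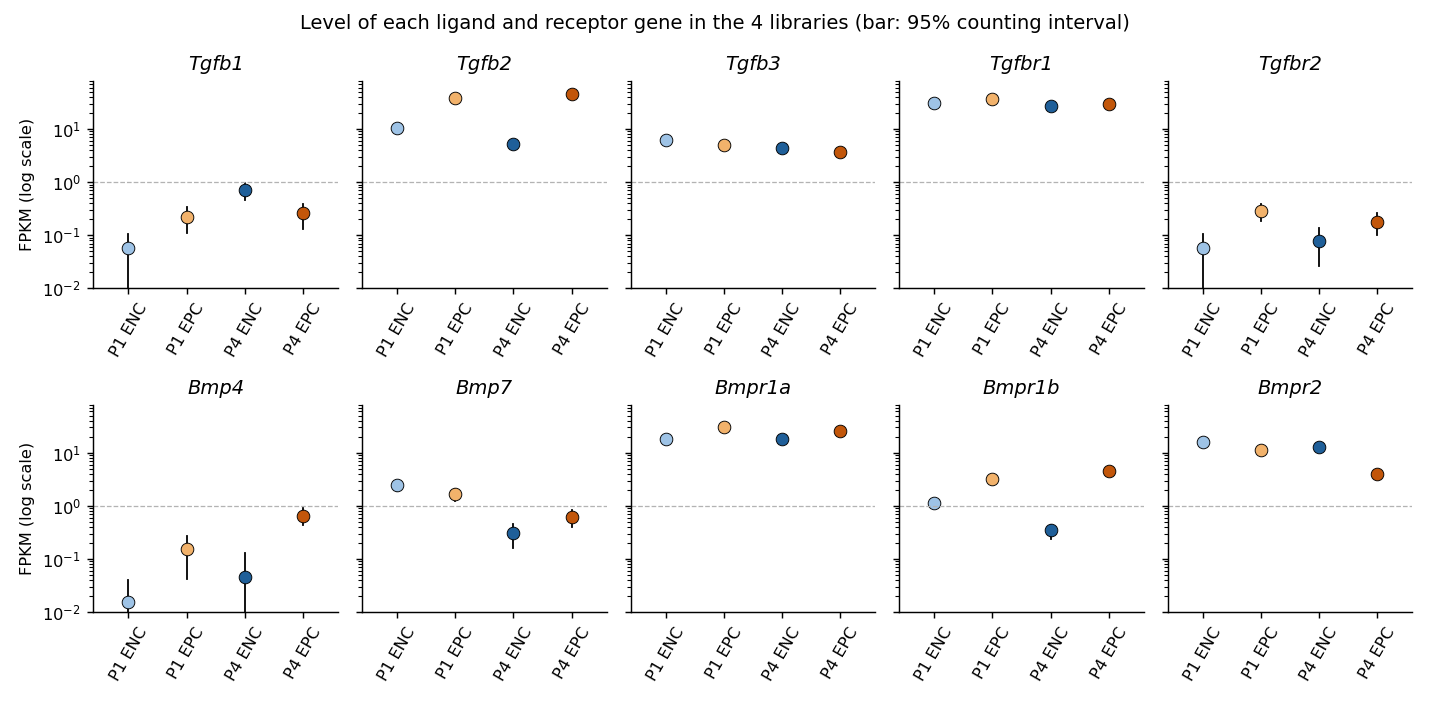
FPKM (log axis) of the 10 ligand and receptor genes in the P1 and P4 pHes1_ENC and pHes1_EPC libraries. Points are the 4 libraries, vertical bars the deposited 95% intervals (drawn down to 0.01 where they reach lower), and the dashed line an FPKM of 1. Tgfb2 and Bmpr1b are higher in both pHes1_EPC libraries, Bmpr2 is lowest in P4 pHes1_EPCs, and Tgfb1, Tgfbr2 and Bmp4 stay below the dashed line in every library.

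The 250 bases before the start of transcription are shown for Tgfb2, Bmpr1b and Bmpr2. Tgfb2 and Bmpr1b were higher in pHes1_EPCs by the widest margin on the log2(FPKM + 1) scale, and Bmpr2 was lower beyond 2-fold at P4. They are the RefSeq promoter sequences (GRCm38.p6), each of which occurs exactly 1 time in the mm9 genome that the files use. The Tgfb2 stretch lies at chr1:188529869-188530118 on the minus strand, and its last 3 bases overlap the gene line of the files. The Bmpr1b stretch lies at chr3:141645229-141645478 on the minus strand, 13 bases before its gene line, and belongs to the outermost of its 3 RefSeq starts. The Bmpr2 stretch lies at chr1:59820873-59821122 on the plus strand and ends at a start 358 bases upstream of the gene line. Capitals mark matches, on either strand, to the SMAD element CAGAC, the GC-rich BMP element GGCGCC, the E-box CACGTG, the N-box CACNAG that HES repressors are known to bind, and the TATA box TATAAA.
Tgfb2: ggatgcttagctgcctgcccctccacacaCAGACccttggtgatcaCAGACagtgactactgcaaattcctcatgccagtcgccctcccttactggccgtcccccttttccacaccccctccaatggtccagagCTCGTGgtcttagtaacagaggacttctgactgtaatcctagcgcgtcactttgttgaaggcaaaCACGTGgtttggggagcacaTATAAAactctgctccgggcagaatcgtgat
Bmpr1b: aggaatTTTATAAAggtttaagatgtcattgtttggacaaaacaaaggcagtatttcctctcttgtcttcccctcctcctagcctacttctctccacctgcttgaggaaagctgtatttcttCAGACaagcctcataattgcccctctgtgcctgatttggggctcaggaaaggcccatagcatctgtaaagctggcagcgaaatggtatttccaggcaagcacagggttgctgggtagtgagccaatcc
Bmpr2: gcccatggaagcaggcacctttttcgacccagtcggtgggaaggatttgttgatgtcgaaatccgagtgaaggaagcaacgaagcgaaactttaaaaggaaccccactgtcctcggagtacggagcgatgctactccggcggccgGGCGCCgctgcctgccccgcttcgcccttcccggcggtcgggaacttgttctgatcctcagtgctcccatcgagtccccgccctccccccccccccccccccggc

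Tgfb2 held 2 SMAD elements at -221 and -204, an N-box (as its reverse complement) at -116, the E-box at -51 and a TATA box at -31, counted from the start site to the first base of the match. Bmpr1b held 1 SMAD element at -128 and 2 overlapping TATA matches at -244 and -242. Bmpr2 held 1 GC-rich BMP element at -105 and none of the other 4 motifs. Over the 250 upstream bases of 32851 RefSeq promoters, 42.2% held the SMAD element, 9.59% the GC-rich BMP element, 6.02% the E-box, 36.7% the N-box and 12.4% the TATA box. Promoters of 8 of the 10 genes were matched by symbol, in 11 windows, and the 2 without an entry are Tgfb3 and Bmp7. Of the others, the first windows of Tgfbr1 and Bmpr1a held the GC-rich BMP element at -233 and -198, Tgfbr2 held a SMAD element at -160, Bmp4 held the E-box at -188, and Tgfb1 held no match. The matches describe letters only.

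Tgfb2 (chromosome 1, 188447065 to 188529871, minus strand, mm9) encodes TGF-β2. Its level was 10.4 FPKM (95% interval 9.46 to 10.99) in P1 pHes1_ENCs, 38.3 (35.7 to 38.7) in P1 pHes1_EPCs, 5.33 (4.76 to 5.84) in P4 pHes1_ENCs and 45.3 (42.4 to 45.7) in P4 pHes1_EPCs. Both pHes1_EPC libraries were high, both pHes1_ENC libraries were low, and the intervals did not overlap. The difference between fractions was 1.79 on the log2(FPKM + 1) scale at P1, with 2.56% of tested genes at or above it. At P4 it was 2.87, with 1.80% of tested genes at or above it. The ratio of FPKM values was 3.70 at P1 (3.25 to 4.09 from the interval bounds) and 8.51 at P4 (7.27 to 9.60). From P1 to P4 the level in pHes1_ENCs was 1.94-fold lower, a difference of -0.84. In pHes1_EPCs the difference between the ages was 0.24, close to the median of all tested genes (0.17), and it turned to below 0 when libraries were scaled to the same FPKM total or quantile-normalized.

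Tgfb2 was the main TGF-β ligand transcript of every library. It made up 62.0% of the summed FPKM of the 3 TGF-β ligands in P1 pHes1_ENCs and 50.9% in P4 pHes1_ENCs, and 87.9% and 92.0% in P1 and P4 pHes1_EPCs. Ranked among the 10 genes, Tgfb2 came below Tgfbr1, Bmpr1a and Bmpr2 in both pHes1_ENC libraries. In P4 pHes1_ENCs its interval overlapped that of the next gene, Tgfb3. In pHes1_EPCs it had the highest value at both ages, but at P1 its interval overlapped that of Tgfbr1.

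Tgfb3 (chromosome 12, 87397693 to 87419991, minus strand) encodes TGF-β3. Its levels ran from 6.29 FPKM in P1 pHes1_ENCs and 5.06 in P1 pHes1_EPCs to 4.42 in P4 pHes1_ENCs and 3.68 in P4 pHes1_EPCs. The fractions overlapped in their intervals at both ages (differences of -0.27 at P1 and -0.21 at P4). The 2 ages did not overlap, with P4 lower by -0.43 in pHes1_ENCs and -0.37 in pHes1_EPCs, both within 2-fold.

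Tgfb1 (chromosome 7, 26472021 to 26490015, plus strand) encodes TGF-β1. It stayed below an FPKM of 1, with 0.058 in P1 pHes1_ENCs, 0.222 in P1 pHes1_EPCs, 0.727 in P4 pHes1_ENCs and 0.265 in P4 pHes1_EPCs. The highest value was in P4 pHes1_ENCs (0.469 to 0.975), whose interval did not overlap the other 3. The difference between fractions was 0.21 at P1 and -0.45 at P4, short of the 2-fold call on a scale that compresses such low levels, while the FPKM ratio was 3.84 at P1 and the level in pHes1_EPCs was 2.75-fold lower at P4. Markers of microglia and of red blood cells were present at levels that differed between libraries. The 8 microglia markers summed to 2.58, 14.1, 8.61 and 13.7 FPKM in the order P1 pHes1_ENC, P1 pHes1_EPC, P4 pHes1_ENC and P4 pHes1_EPC, with none listed at 0. The 4 erythrocyte markers, mostly Hba-a1, summed to 108, 0.353, 322 and 3.95 FPKM, so they too were highest in P4 pHes1_ENCs. The part of either cell type in the Tgfb1 level was not tested.

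The TGF-β receptors were unequal in level. Tgfbr1 (chromosome 4, 47366177 to 47427796, plus strand), the type I receptor, was at 31.1 FPKM in P1 pHes1_ENCs, 37.2 in P1 pHes1_EPCs, 27.1 in P4 pHes1_ENCs and 30.0 in P4 pHes1_EPCs. It had the highest FPKM of the 10 genes in both pHes1_ENC libraries. The pHes1_EPC libraries were slightly higher, with intervals apart at both ages and differences of 0.25 at P1 and 0.14 at P4, of which the latter turned to below 0 (as low as -0.17) with median-of-ratios scaling or the same FPKM total and was 0 with quantile normalization.

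Tgfbr2 (chromosome 9, 115996813 to 116084481, minus strand), the type II receptor that binds TGF-β ligands, was near the bottom of the list. Its level was 0.056 FPKM in P1 pHes1_ENCs, 0.287 in P1 pHes1_EPCs, 0.078 in P4 pHes1_ENCs and 0.179 in P4 pHes1_EPCs. The fractions were apart at P1, with a ratio of 5.09 (1.78 to 48.2), and overlapped at P4. Tgfbr2 therefore made up 0.181% to 0.767% of the summed FPKM of Tgfbr1 and Tgfbr2. Tgfbr2 is known to be strong in endothelial cells. The summed level of the 7 endothelial markers was 63.8, 213, 15.3 and 194 FPKM in the order P1 pHes1_ENC, P1 pHes1_EPC, P4 pHes1_ENC and P4 pHes1_EPC, and Kdr carried most of it (209 and 189 FPKM in the pHes1_EPC libraries). Cldn5, the only other one at 1 FPKM or above, was at 16.3, 3.49, 2.59 and 4.06 FPKM in the same order. Of the rest, Pecam1 was at most 0.142 FPKM in any library, Tie1 at most 0.032, and Cdh5 was listed at 0 in both P4 libraries. The part of endothelial cells in the Tgfbr2 level was not tested.

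The BMP ligands were low. Bmp4 (chromosome 14, 47003196 to 47010274, minus strand), the dorsal BMP of the eye, was at 0.015 FPKM in P1 pHes1_ENCs, 0.154 in P1 pHes1_EPCs, 0.046 in P4 pHes1_ENCs and 0.657 in P4 pHes1_EPCs. Both pHes1_EPC libraries were above the pHes1_ENC library of the same age by intervals and by a ratio of 10.03 at P1 and 14.3 at P4. The interval bounds put these ratios at no less than 1.05 and 3.27, with no upper limit because the lower bound in pHes1_ENCs was 0. On the log2(FPKM + 1) scale, which compresses levels this low, the differences were 0.18 and 0.66, short of the 2-fold call. The 6 dorsal retina markers summed to 144, 207, 59.9 and 255 FPKM in the same order, and the 5 ventral retina markers to 83.4, 109, 43.1 and 79.5 FPKM. Of the 7 pigment epithelium markers, 4 were at 1 FPKM or above in P4 pHes1_EPCs, led by Pmel (36.5 FPKM). Their sum was 59.9 FPKM there and 3.83 to 7.33 FPKM in the other libraries, with Rpe65 listed at 0 in 1 library. The part of these cells in the Bmp4 level was not tested.

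Bmp7 (chromosome 2, 172695189 to 172765794, minus strand), a BMP needed early in eye formation, was at 2.496 FPKM (1.91 to 2.94) in P1 pHes1_ENCs, 1.69 (1.24 to 2.11) in P1 pHes1_EPCs, 0.312 (0.160 to 0.460) in P4 pHes1_ENCs and 0.611 (0.392 to 0.842) in P4 pHes1_EPCs. The P1 libraries were high and the P4 libraries low, while the 2 fractions overlapped at each age. The level in pHes1_ENCs was 8.005-fold lower at P4 (4.15 to 18.4), a difference of -1.41. In pHes1_EPCs it was 2.76-fold lower (1.47 to 5.396), a difference of -0.74.

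The BMP receptors differed from each other in level and in direction. Bmpr1a (chromosome 14, 35224254 to 35315732, minus strand), the widely expressed type I receptor, was at 18.5 FPKM (17.3 to 19.2) in P1 pHes1_ENCs, 30.8 (28.9 to 31.3) in P1 pHes1_EPCs, 17.8 (16.6 to 18.5) in P4 pHes1_ENCs and 25.5 (23.9 to 26.01) in P4 pHes1_EPCs. Both pHes1_EPC libraries were above both pHes1_ENC libraries with no overlap. The ratio was 1.66 at P1 (1.51 to 1.81) and 1.43 at P4 (1.29 to 1.57), and the differences, 0.70 and 0.49, stayed within 2-fold. The difference at P4 was 0.18 with the same FPKM total and 0.30 with median-of-ratios scaling.

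Bmpr1b (chromosome 3, 141500100 to 141645215, minus strand), the other BMP-specific type I receptor, was at 1.13 FPKM (0.948 to 1.32) in P1 pHes1_ENCs, 3.22 (2.85 to 3.57) in P1 pHes1_EPCs, 0.344 (0.243 to 0.442) in P4 pHes1_ENCs and 4.62 (4.16 to 5.09) in P4 pHes1_EPCs. The pHes1_EPC libraries were high and the pHes1_ENC libraries low, and all 4 intervals were apart. The ratio was 2.84 at P1 (2.17 to 3.77) and 13.4 at P4 (9.41 to 20.9). On the log2(FPKM + 1) scale the difference at P1 was 0.98, just inside 2-fold, with 10.5% of tested genes at or above it. At P4 it was 2.06, with 4.90% of tested genes at or above it. From P1 to P4 the difference was 0.41 in pHes1_EPCs and -0.67 in pHes1_ENCs. Bmpr1b made up 5.77% and 1.89% of the summed FPKM of Bmpr1a and Bmpr1b in P1 and P4 pHes1_ENCs, and 9.46% and 15.4% in P1 and P4 pHes1_EPCs.

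Bmpr2 (chromosome 1, 59821481 to 59927703, plus strand), the BMP type II receptor, was at 15.7 FPKM (14.2 to 16.5) in P1 pHes1_ENCs, 11.4 (10.2 to 12.1) in P1 pHes1_EPCs, 13.0 (11.6 to 13.7) in P4 pHes1_ENCs and 3.91 (3.36 to 4.35) in P4 pHes1_EPCs. P4 pHes1_EPCs were low and the other 3 libraries were high, with the value in P4 pHes1_EPCs apart from each of them. The difference between fractions was -0.43 at P1 and -1.51 at P4, and 4.40% of tested genes were at or below the latter. From P1 to P4, Bmpr2 was 2.92-fold lower in pHes1_EPCs (2.35 to 3.59), a difference of -1.34 with 2.1% of tested genes at or below it. In pHes1_ENCs the same difference was -0.26.

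The P4 pHes1_EPC library also stood apart in how its differences ran with transcript length, taken as the longest GENCODE vM1 transcript of each gene. For P4 pHes1_EPCs minus P4 pHes1_ENCs the median difference was 0.62 in the shortest of 10 length classes of nearly equal size and -0.31 in the longest. For P4 minus P1 in pHes1_EPCs the medians were 0.64 and -0.25. The comparisons without this library had a smaller span, from 0.18 to -0.17 between fractions at P1 and from 0.11 to -0.18 between ages in pHes1_ENCs. Bmpr2, with 3507 bases, falls in class 6, whose medians were 0.08 and 0.15. With the median of its class subtracted, Bmpr2 differed by -1.59 between fractions at P4 and by -1.49 between ages in pHes1_EPCs. Without the subtraction these were -1.51 and -1.34. With the subtraction Tgfb2 (4725 bases) differed by 1.79 at P1 and 2.86 at P4, and Bmpr1b (5349 bases) by 1.07 and 2.12, which puts Bmpr1b past 2-fold at P1. The annotation behind the FPKM values is not known, so the lengths used for them can differ from these. The part of transcript length in these differences was not tested.

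**Figure D2:**
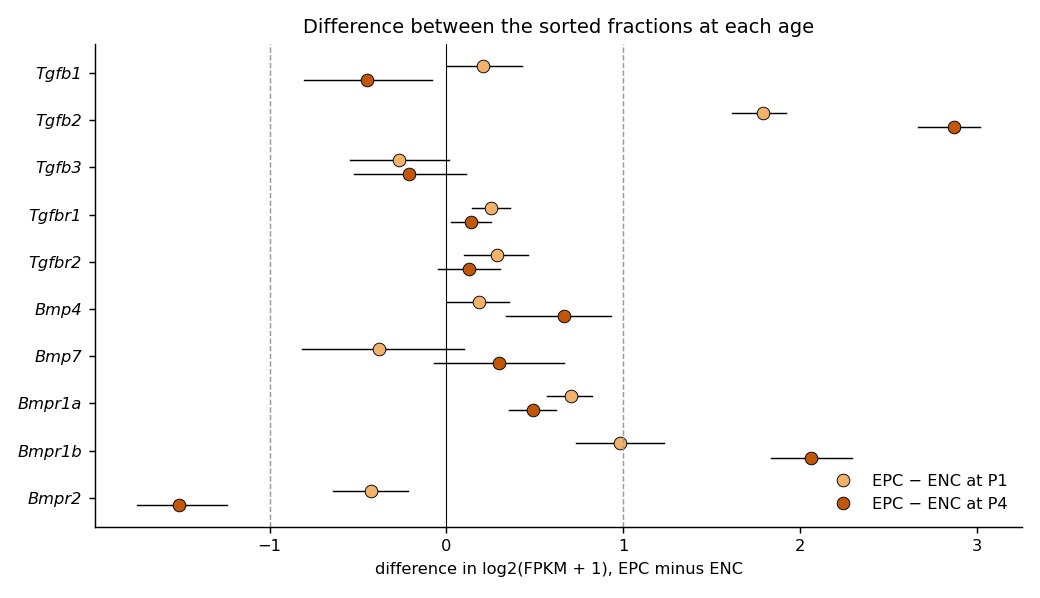
Difference in log2(FPKM + 1) between pHes1_EPCs and pHes1_ENCs (x axis) for each of the 10 genes (rows) at P1 (light) and P4 (dark). Horizontal lines run between the extremes that the 95% intervals of both libraries allow, and dashed lines mark 2-fold. Tgfb2 lies past the right dashed line at both ages, Bmpr1b at P4, and Bmpr2 past the left dashed line at P4.

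Counted over the 10 genes, 1 (Tgfb2) was more than 2-fold higher in pHes1_EPCs at P1 and none was lower. Of all tested genes 10.3% were higher and 11.5% lower in that comparison. At P4, 2 genes (Tgfb2 and Bmpr1b) were higher and 1 (Bmpr2) was lower, against 16.6% and 9.16% of tested genes. These shares depend on the scaling at P4, where 2151 tested genes were higher and 1186 lower as deposited, but 1499 were higher and 1749 lower with libraries scaled to the same FPKM total. The 3 called ligand and receptor genes kept their calls at P4 under that scaling. Counts of 1 or 2 among 10 genes lie near these background shares.

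By intervals that do not overlap, 7 of the 10 genes were higher in pHes1_EPCs at P1, 1 (Bmpr2) was lower and 2 (Tgfb3 and Bmp7) overlapped. In tested genes this rule called 34.9% higher and 32.7% lower. At P4, 5 were higher (Tgfb2, Tgfbr1, Bmp4, Bmpr1a and Bmpr1b), 2 were lower (Tgfb1 and Bmpr2) and 3 overlapped, against 44.2% and 29.2% of tested genes. These counts include Tgfb1, Tgfbr2 and Bmp4, which are outside the tested genes.

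Between the ages, none of the 10 was called higher at P4 in pHes1_EPCs and 1 (Bmpr2) was called lower, with 7.04% of tested genes higher and 4.35% lower. In pHes1_ENCs none was higher and 1 (Bmp7) was lower, with 4.68% and 10.1% of tested genes. The 2 fraction comparisons and the 2 age comparisons share their libraries, so a value that is unusual in P4 pHes1_EPCs enters both.

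**Figure D3:**
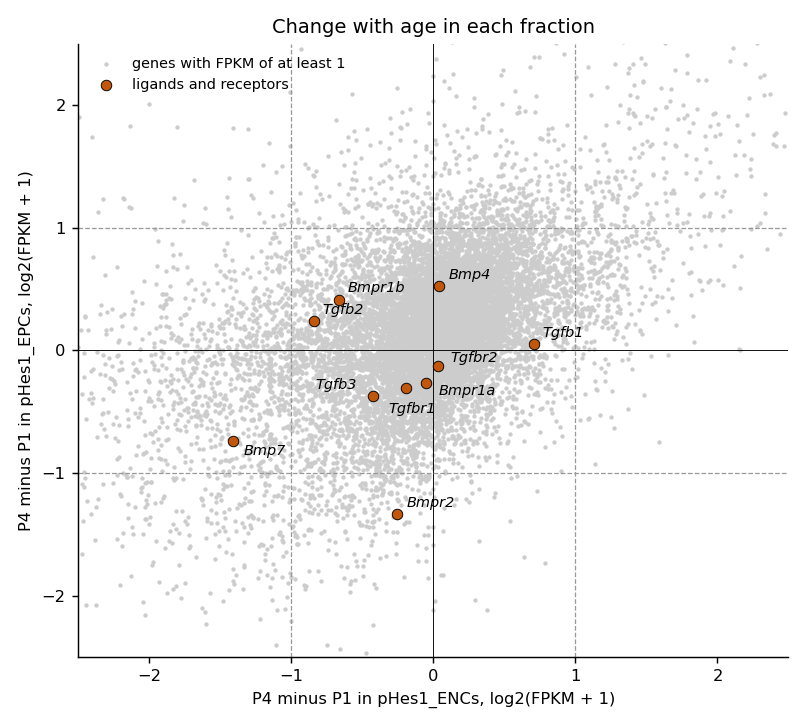
Difference between P4 and P1 in log2(FPKM + 1) in pHes1_ENCs (x axis) and in pHes1_EPCs (y axis), for the 10 ligand and receptor genes (orange) and all tested genes (grey, with 200 genes beyond the axis limit of 2.5 not drawn). Dashed lines mark 2-fold. Bmpr2 lies below the lower dashed line and Bmp7 left of the left dashed line, while Tgfb2 and Bmpr1b lie left of 0 on the x axis and above 0 on the y axis.

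The balance of receptor transcripts differed between the libraries. Activin type II receptors (Acvr2a and Acvr2b) can stand in for Bmpr2 in BMP signalling, so the 3 genes were summed. The sum was 47.3 FPKM in P1 pHes1_ENCs, 30.2 in P1 pHes1_EPCs, 36.1 in P4 pHes1_ENCs and 15.0 in P4 pHes1_EPCs, so it was lower in pHes1_EPCs at each age. Acvr2b was at 17.6, 11.8, 12.0 and 3.75 FPKM in the same order, the same ranking of libraries as Bmpr2 had. Acvr2a was at 14.0, 7.01, 11.1 and 7.31 FPKM. The summed FPKM of Bmpr1a and Bmpr1b divided by that of Bmpr2 was 1.25 and 1.40 in P1 and P4 pHes1_ENCs, and 2.98 and 7.70 in P1 and P4 pHes1_EPCs.

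**Figure D4:**
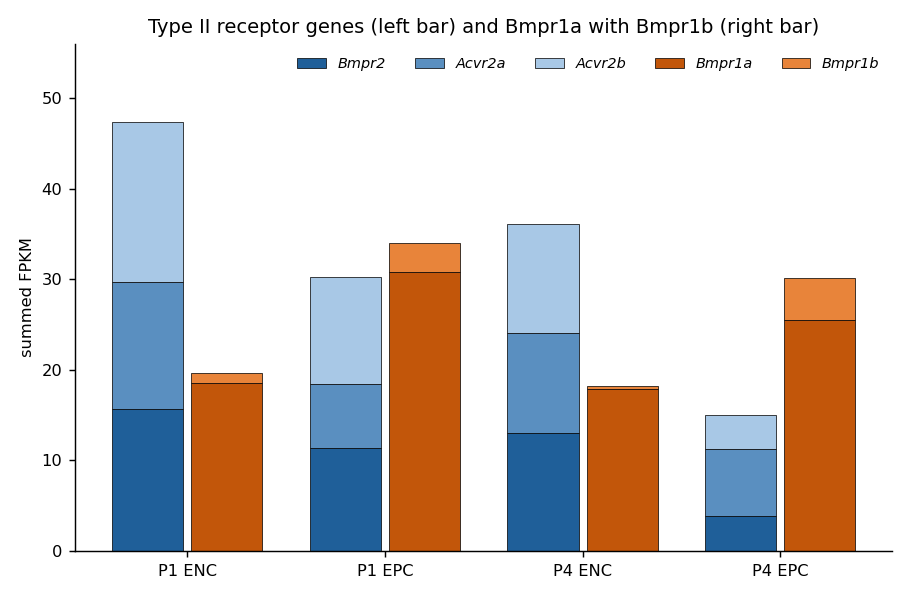
Summed FPKM (y axis, from 0) of the type II receptor genes Bmpr2, Acvr2a and Acvr2b (left bar, blue) and of the type I receptor genes Bmpr1a and Bmpr1b (right bar, orange) in each of the 4 libraries, with no error shown. The left bar is the taller in both pHes1_ENC libraries, and the right bar is the taller in both pHes1_EPC libraries, by the widest margin at P4 (15.0 against 30.1 FPKM).

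Ordered by level, Tgfbr1, Bmpr1a and Bmpr2 were the first 3 genes in both pHes1_ENC libraries, each with an interval apart from the next. In P4 pHes1_EPCs the order was Tgfb2, Tgfbr1 and Bmpr1a, all apart, followed by Bmpr1b (4.62 FPKM), Bmpr2 (3.91) and Tgfb3 (3.68), which overlapped from neighbour to neighbour. The lowest genes in P1 pHes1_ENCs, Tgfb1, Tgfbr2 and Bmp4, overlapped in the same way.

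The pattern over the 4 libraries was compared by the Euclidean distance between log2(FPKM + 1) values centred on each gene's mean. Among the 7 genes that reached 1 FPKM, the closest pair was Tgfbr1 and Bmpr1a (0.41), and the most distant was Tgfb2 and Bmpr2 (3.51). Tgfb2 and Bmpr1b were 0.83 apart. Of all tested genes, Krt15 (0.11) and Rhoc (0.12) were nearest to Tgfb2, with 104 genes within 0.5. Rhoc was at 12.9, 50.2, 7.45 and 62.6 FPKM in the order P1 pHes1_ENC, P1 pHes1_EPC, P4 pHes1_ENC and P4 pHes1_EPC. Nearest to Bmpr1b were Ttc32 (0.028) and Cox6b2 (0.037), with 266 genes within 0.5. Nearest to Bmpr2 were Lcor (0.085) and Syt14 (0.15), with 46 genes within 0.5, the fewest of the 10. Nearest to Bmp7 were Cux2 (0.050) and Fam184a (0.12), with 127 genes within 0.5. The other genes had flatter patterns on this scale and between 1462 and 3539 genes within 0.5. Of these, Tgfb1, Tgfbr2 and Bmp4 lay below an FPKM of 1, where the scale compresses differences. Bmp4 ran from 0.015 to 0.657 FPKM, while its nearest gene Mrps23 ran from 21.7 to 36.2 FPKM. Nearest genes were Ttc30a1 and Ccdc96 for Tgfb1, 4930539J05Rik and Ccdc88c for Tgfb3, March6 and Tep1 for Tgfbr1, Arnt and Rp2h for Tgfbr2, and Mrps23 and 2810422J05Rik for Bmp4. The distance was taken over 4 libraries.

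The rest of the pathway was described from 95 other genes, all with a line in the files, of which 53 were among the tested genes. At P1, 12 of the 95 were more than 2-fold higher in pHes1_EPCs and 7 were lower, against 10.3% and 11.5% of all tested genes. At P4, 21 were higher and 7 were lower, against 16.6% and 9.16% of tested genes. These shares also stand beside the list counts below. A gene below an FPKM of 1 in every library cannot pass 2-fold on this scale, so all genes counted fall among the 53 tested ones. The median difference over the 95, many of them held near 0 by the pseudocount, was 0.01 at P1 and 0.05 at P4. Among those tested, 53 genes, it came to 0.36 and 0.70, beside 0.02 and 0.15 over all tested genes. A gene can be among the tested genes through its level in a single library, so list medians over tested genes are given as description only. From P1 to P4, 4 of the 95 were higher and 2 lower in pHes1_EPCs, against 7.04% and 4.35% of tested genes. In pHes1_ENCs 1 was higher and 10 were lower, against 4.68% and 10.1% of tested genes.

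Of 28 other ligands, 1 was higher in pHes1_EPCs at each age and 3 were lower at P1 and 2 at P4, with medians of -0.07 and 0, or -0.28 and -0.45 over the 8 tested ones. The higher gene was Bmp3, at 0.201 and 1.85 FPKM in P1 pHes1_ENCs and pHes1_EPCs and 0.339 and 3.84 at P4. Inhbb, which encodes an activin and inhibin subunit, was lower at both ages. It was at 14.6 FPKM in P1 pHes1_ENCs, 0.499 in P1 pHes1_EPCs, 26.1 in P4 pHes1_ENCs and 3.38 in P4 pHes1_EPCs, differences of -3.38 and -2.63. Gdf11, a ligand known to limit ganglion cell number, was lower at P1 by -1.61 and differed by -0.74 at P4.

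Of 9 other receptors, none was past 2-fold at P1 and 2, Acvr1b and Acvr2b, were lower in pHes1_EPCs at P4. Acvr1b, a type I receptor for activins, was at 22.7, 13.6, 26.02 and 11.7 FPKM in the order P1 pHes1_ENC, P1 pHes1_EPC, P4 pHes1_ENC and P4 pHes1_EPC, a difference of -1.09 at P4. Acvr2b differed by -1.46 at P4. The list's medians were -0.004 and -0.02, and those of its 4 tested genes were -0.62 and -0.81.

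Of 8 SMAD genes, 1 was lower at P1 (Smad2, -1.38) and 1 was higher at P4 (Smad3, 1.78), with medians of 0.05 and 0.07, or -0.01 and 0.08 over the 7 tested ones. Smad2 and Smad3 both carry the TGF-β and activin signal. Smad2 was at 62.6, 23.4, 44.9 and 23.5 FPKM in the same order, so it was lower in both pHes1_EPC libraries, while Smad3 was at 8.26, 11.5, 1.75 and 8.48 FPKM. Smad4 differed by -0.01 at P1 and -0.34 at P4.

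Of 15 extracellular antagonists, 1 was higher and 2 were lower at P1, and 3 were higher and 1 was lower at P4, with medians of 0.02 and 0.09, or 0.47 and 0.89 over the 7 tested ones. Chrdl1, a secreted BMP antagonist, was at 1.498, 10.9, 0.259 and 9.41 FPKM in the same order, differences of 2.25 and 3.05. Nbl1 and Sostdc1 were the other genes higher at P4, by 2.24 and 2.43. Dand5, an antagonist of Nodal and BMPs, was lower at both ages by -1.09 and -1.12. Twsg1, the antagonist with the highest FPKM, differed by 0.47 and 0.42.

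Of 10 genes for TGF-β latency and activation, 3 were higher and 1 was lower at P1, and 5 were higher and 1 was lower at P4, with medians of 0.29 and 0.51, or 0.36 and 1.598 over the 7 tested ones. Itgav and Itgb8 encode the chains of an integrin that frees TGF-β from its latent complex. Itgav was at 2.87, 7.35, 1.62 and 9.42 FPKM in the same order, differences of 1.11 and 1.99. Itgb8 was at 5.65, 13.4, 3.19 and 7.38 FPKM, differences of 1.12 and 1.00, but the study picked it on these same samples, so it is not independent. Ltbp4, a latent TGF-β binding protein, was higher by 1.54 and 2.07. Furin, the protease that cleaves TGF-β family precursors, was lower by -1.08 and -1.42.

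Of 11 intracellular regulators, all of them tested genes, 1 was higher at P1, and 3 were higher and 1 was lower at P4, with medians of 0.26 and 0.38. Pmepa1, a TGF-β target that restrains SMAD signalling, was at 44.0, 145.3, 21.1 and 146.6 FPKM in the same order, differences of 1.70 and 2.74. Fkbp1a, whose product binds TGF-β family type I receptors, differed by 0.26 and 0.94.

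Of 10 BMP target genes, 4 were higher at P1 and 5 at P4 and none was lower, with medians of 0.85 and 1.49, or 1.19 and 2.23 over the 8 tested ones. Id1, Id2 and Id3 encode inhibitors of basic helix-loop-helix factors. Id1 was at 24.4, 103.0, 6.82 and 81.4 FPKM in the same order, Id2 at 23.5, 114.9, 5.99 and 103.5 FPKM, and Id3 at 19.1, 125.3, 6.49 and 188.0 FPKM. In each the pHes1_EPC libraries were high and the P4 pHes1_ENC library was lowest. Between fractions they differed by 2.03, 2.24 and 2.65 at P1, and by 3.40, 3.90 and 4.66 at P4. Atoh8 differed by 1.46 and 2.37. Id genes also respond to other signals, including Notch, and mark progenitors and glia, whose markers were higher in the same libraries, and the part of cell makeup in these values was not tested. Smad6, Smad7 and Bambi, feedback inhibitors that BMPs induce, stayed within 2-fold at both ages.

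Of 11 TGF-β target genes, 3 were higher at P1 and 4 at P4 and none was lower, with medians of 0.42 and 0.49, or 0.69 and 1.06 over the 7 tested ones. Fn1, fibronectin, was at 8.27, 28.7, 6.97 and 18.2 FPKM in the same order, differences of 1.68 and 1.27. Skil differed by 0.42 and 0.38. Smad7, Skil, Pmepa1, Bambi, Smad6 and Ltbp2 stand in more than 1 of these lists.

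**Figure D5:**
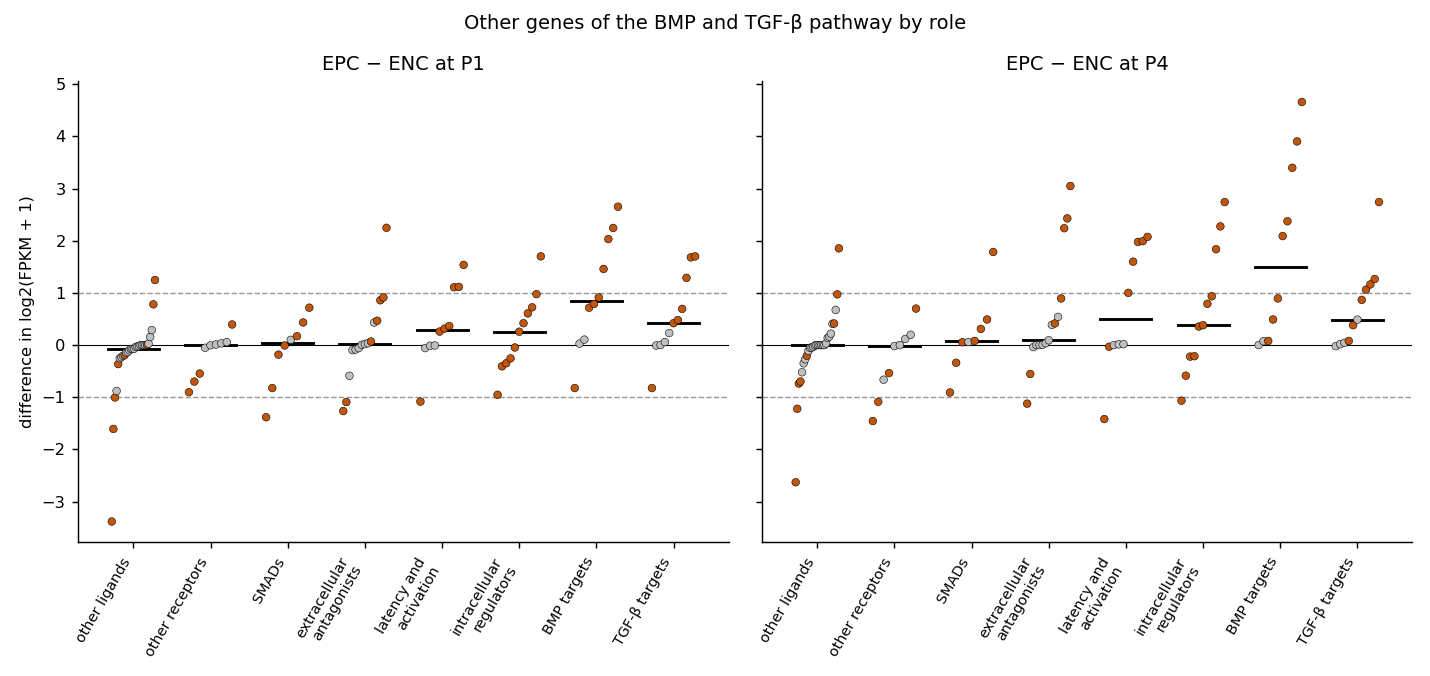
Difference in log2(FPKM + 1) between pHes1_EPCs and pHes1_ENCs (y axis) at P1 (left) and P4 (right) for the other pathway genes, grouped by role. Each point is 1 gene, orange where its FPKM is at least 1 in some library and grey otherwise, black lines are list medians over all genes of the list, and dashed lines mark 2-fold. The BMP targets have the highest median at both ages, 0.85 and 1.49.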

How the data were processed

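Total RNA of 4 sorted retinal cell pools, 1 per group, was sequenced with 36-base single-end reads. According to their methods the authors aligned the reads to mm9 with TopHat 2.0.8b, with up to 50 positions per read and coverage search, and deposited FPKM values with 95% intervals from Cufflinks 2.1.1. The submitters' processing notes also name bcl2fastq 1.8.4. Read depth and gene annotation are not given in the sources used here. Reads with several positions can shift levels between similar genes.

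Each file held 23021 lines. After 676 small RNA symbols were left out and symbols with several lines were reduced to the most abundant, 21882 genes were analysed. Differences were taken on log2(FPKM + 1), and called past 1, with Python 3.11.15 and pandas 2.3.3. Backgrounds used the 12952 genes that reached 1 FPKM in any library. The calculation was tried on simulated data with counting error only and large changes planted in abundant genes. Low levels and differences near 2-fold were not covered by it. Samples were grouped by their labels, and other pseudocounts, filters, scalings and call rules were tried.

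All 10 genes were named. Of each pathway list, up to 4 genes past 2-fold in the same direction at both ages with FPKM of at least 5, and the 2 with the highest FPKM, were eligible to be named, with further genes where a count was 5 or fewer or a gene was singled out after its values were seen. Hes1 was added as a check of the sort. The genes and lists were chosen with earlier results of these data known. Lists without a result above are given in the closing section. The genes nearest to Bmpr1a are not reported here.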

Additional observations from a re-analysis of the deposited data

Results flagged for a closer look

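Tgfb1, Tgfb2 and Bmpr1b had effects that pointed in opposite directions in the 2 ages or in the 2 fractions, with deposited intervals that did not overlap within either. With 1 library per group, none of these differences of effects was tested. Tgfb1 differed between pHes1_EPCs and pHes1_ENCs by 0.21 at P1 and by -0.45 at P4 on the log2(FPKM + 1) scale, with every level below an FPKM of 1. Tgfb2 differed between P4 and P1 by 0.24 in pHes1_EPCs and by -0.84 in pHes1_ENCs, of which the first changed sign with 2 of the scalings. Bmpr1b differed between P4 and P1 by 0.41 in pHes1_EPCs and by -0.67 in pHes1_ENCs, and both kept their sign in each of the 9 alternatives that gave a value. Of these, only the scalings, quantile normalization and the length subtraction could have changed a sign.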

How the results depend on the processing

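Tgfb2 and Bmpr2 kept their direction and their side of 2-fold between fractions in all 10 alternatives, and Bmpr1b at P4 in the 9 that gave a value. Settings that only filter genes, or that sum the lines of a symbol, cannot change the values of these genes. Only the pseudocounts, the scalings, quantile normalization and the length subtraction could have moved them. Bmpr1b at P1 passed 2-fold with a pseudocount of 0.1, with none, with quantile normalization and with the length median subtracted, an alternative chosen after seeing the data. The last 2 settings each gave 2 of the 10 genes higher at P1 instead of 1, and the cause with quantile normalization was not tested. The genes below an FPKM of 1 made the counts depend on the pseudocount. With 0.1, 5 of the 10 genes were higher in pHes1_EPCs at P1, and 3 were higher and 2 lower at P4. Of the 12952 tested genes, 1752 were then higher at P1 and 2699 at P4. Without a pseudocount, 5 were higher at P1, and 4 higher and 2 lower at P4, while 1811 tested genes were higher at P1 and 2774 at P4. Both settings also called more of the 10 genes between the ages, but the share over tested genes was not recorded there, so those counts are not given. Calling by intervals that do not overlap gave 7 higher and 1 lower at P1, and 5 and 2 at P4. Between the ages the same rule gave 3 higher and 5 lower in pHes1_EPCs, and 1 and 6 in pHes1_ENCs. For this rule too, no share over tested genes is available between the ages. Whether these age counts differ from those of other genes was therefore not tested. Requiring an FPKM of 5 removed Tgfb1, Tgfbr2, Bmp4, Bmp7 and Bmpr1b. Of the genes that were left, 1 was higher at P4 and 0 were lower between the ages in pHes1_ENCs.

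Of the 95 other pathway genes, 19 were higher and 14 lower at P1 with a pseudocount of 0.1, and 31 were higher and 12 lower at P4. Without one, 26 were higher and 24 lower at P1, and 37 and 18 at P4. By intervals, 33 were higher and 21 lower at P1, and 40 and 18 at P4. Their median at P4 was 0.27 with a pseudocount of 0.1 and 0.71 without one, and with an FPKM of at least 5 the medians were 0.26 at P1 and 0.42 at P4. By intervals, 4521 tested genes were higher and 4233 lower at P1, and 5727 and 3776 at P4. Scaling to the same FPKM total, median-of-ratios scaling and quantile normalization moved the median difference of tested genes by -0.27, -0.17 and -0.19 at P4, and by -0.24, -0.15 and -0.15 between the ages in pHes1_EPCs. No paired analysis was possible because the results come from no test, and the fraction difference of each age is given instead. No library was left out, since each is a whole group. Depth is unknown, so no floor could be given for the low genes.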

Other observations

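Markers of further cell types gave these summed levels in the order P1 pHes1_ENC, P1 pHes1_EPC, P4 pHes1_ENC and P4 pHes1_EPC. The amacrine markers with a line (4 of 6) summed to 81.0, 3.52, 70.9 and 12.0 FPKM, and the 7 ganglion cell markers to 29.3, 19.9, 7.28 and 5.90 FPKM. The 4 astrocyte markers summed to 3.72, 4.73, 7.37 and 14.1 FPKM, and the 5 pericyte markers to 0.943, 2.47, 0.259 and 1.92 FPKM. Between the fractions at P4, Pdgfra was the only astrocyte marker past 2-fold, and the median difference of that list was 0.02. All 4 astrocyte markers were at 1 FPKM or above in P4 pHes1_ENCs, and 2 were in P4 pHes1_EPCs. The 4 ciliary margin markers summed to 1.35, 2.59, 1.30 and 1.41 FPKM, and the 4 lens markers to 0.948, 0.527, 1.21 and 0.583 FPKM. The part of these cells in the ligand and receptor levels was not tested.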
